A study of Homo sapiens with 6 samples.

Results

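The genes described here are 10 transcripts around the transcription factor ATF4 and the synthesis of serine and one-carbon units: ATF4, DDIT3, TRIB3, NUPR1, ASNS, PHGDH, PSAT1, PSPH, SHMT2 and MTHFD2. They were taken by gene symbol, in a choice made with earlier results of these data known, and all 10 were among the 13117 genes of the deposited table. The samples were SNU449 cells, an established human hepatocellular carcinoma line, carrying FOXO1AAA in pInducer20, a vector that switches its insert on with doxycycline. FOXO1AAA is a form of the transcription factor FOXO1 whose sites for the kinase AKT are replaced, so that AKT does not hold it out of the nucleus. There were 3 Dox libraries, from cells given 2 µM doxycycline hydrochloride for 48 h, and 3 Cont libraries, from cells with the same construct and no drug, and the genotype label was WT in both groups. No cells without the construct received doxycycline, so effects of the drug and of FOXO1AAA cannot be told apart.

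ATF4 is the main transcription factor of the integrated stress response. Kinases that sense lack of amino acids, unfolded protein, viral RNA or haem and mitochondrial stress phosphorylate the initiation factor eIF2, general translation slows, and the ATF4 message is translated more. ATF4 then raises genes for amino acid carriers, tRNA synthetases, asparagine synthesis, and the route from glucose to serine and from serine to glycine and folate-bound one-carbon units, which growing tumour cells use for nucleotides. The data here are mRNA levels only, and ATF4 activity is largely set at translation.

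The libraries held 46, 32.7 and 30.5 M reads in the listed genes for Dox and 29.2, 43.3 and 34 M for Cont, as worked out from the deposited values. FOXO1 itself was at FPKM (fragments per kilobase of transcript per M mapped fragments) 2.87, 3.50 and 2.01 in Dox, against 0.741, 0.776 and 0.890 in Cont, and it is not known if transcripts of the construct add to this value. The 13 mitochondrially encoded transcripts in the table took 14.1 ± 0.799% of summed FPKM in Dox and 3.73 ± 0.854% in Cont (SD, n = 3 each). Among the cell type markers, 1 of 7 hepatocyte genes (ALB) was in the table, with a level of 0.850 to 1.71 FPKM in Dox and 0.0941 to 0.571 in Cont. It had 45, 18 and 14 reads in Dox and 8, 5 and 0 in Cont. The 0.0941 FPKM of the third Cont library is thus only the offset added before the logarithm. The summed level of 3 of 5 tumour and epithelial markers ran from 38.5 to 41.3 FPKM in Dox and from 129 to 144 in Cont, and that of 4 of 4 mesenchymal markers from 309 to 367 in Dox and from 954 to 969 in Cont. The mesenchymal sum is almost all VIM, which fell with CDH2, while ZEB1 (11.8 FPKM in Dox and 7.66 in Cont) and FN1 (7.59 in Dox and 1.36 in Cont) rose. For 2 of 3 fibroblast markers the sums were 133 to 163 FPKM in Dox and 15.6 to 19.4 in Cont, where COL3A1 rose (142 in Dox and 5.93 in Cont) and COL1A1 fell (2.75 in Dox and 11.0 in Cont). For 2 of 3 endothelial markers they were 0.528 to 0.975 in Dox and 0.306 to 0.401 in Cont, none reaching FPKM 1, and the other markers, with all 4 leukocyte genes, were not analysed here. The part of the mitochondrial share and of the marker levels in the results was not tested, and the calls for the genes described here were the same with the mitochondrially encoded genes left out of the scaling.

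Differences were tested with limma on log2(FPKM + 1) over 11526 genes, with a call at a Benjamini-Hochberg adjusted p under 0.05, and log2 changes are Dox minus Cont on that scale. Of the 9 genes of the group that passed the filter on low values, 3 rose (PSAT1, MTHFD2 and NUPR1) and 6 fell (ATF4, DDIT3, TRIB3, PHGDH, PSPH and SHMT2), while ASNS lay below the filter. Among all tested genes 80.4% were called, 37.6% higher and 42.8% lower in Dox, so a call as such does not set these genes apart. Dox and Cont values did not overlap for all 10 genes, and likewise for 82.1% of all tested genes. By size, 6 of the 9 had a log2 change of at least 1 in either direction, against 33% of all tested genes, with a median size of 1.41 against 0.67. The genes were chosen with earlier results of these data known, so this difference in size is a description and was not tested. In these bulk libraries, fewer cells that express a gene and less of its RNA per cell cannot be told apart. The labels name no separate cultures behind the libraries, so the p-values rest on a spread between samples that may be only technical.

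**Figure D1:**
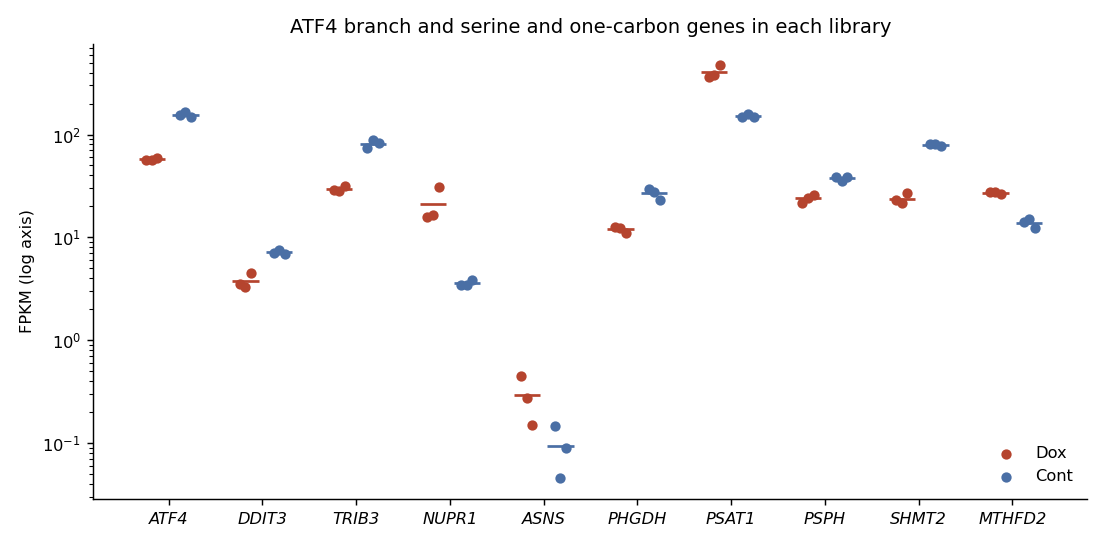
Level of each of the 10 genes (FPKM, log axis) in the 3 Dox libraries (red, left of each pair) and the 3 Cont libraries (blue), with each point 1 library and each line a group mean. PSAT1, MTHFD2, NUPR1 and ASNS sit higher in Dox, the other 6 genes sit lower, and in no gene do the groups overlap.

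ATF4 (GRCh38, chromosome 22, 39519695 to 39522685, plus strand, a protein-coding gene) was at FPKM 56.3, 56.0 and 59.7 in Dox, against 154, 166 and 149 in Cont. The Dox libraries lay close together and far below each of the Cont libraries. The means of 57.4 ± 2.07 in Dox and 156 ± 8.88 in Cont (SD, n = 3 each) made the message 2.72-fold lower in Dox (log2 change -1.43, SE 0.0677, limma adjusted p = 4.04e-08). By level it had a median rank of 2007 among the 13117 listed genes in Dox and of 845 in Cont. The reads behind it were many, 3575 to 5067 per Dox library and 8334 to 13164 per Cont library, and GENCODE 29 names 4 ATF4 pseudogenes that could share reads with it.

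DDIT3 encodes CHOP, a partner and target of ATF4 that is tied to cell death under lasting stress of the endoplasmic reticulum. Its FPKM was 3.52, 3.28 and 4.45 in Dox, against 7.05, 7.52 and 6.81 in Cont, which is 1.90-fold lower in Dox (log2 change -0.78, SE 0.11, limma adjusted p = 9.37e-05). The groups were apart, but the level was low, with 94 to 142 reads per Dox library and 173 to 270 per Cont library. On chromosome 12 (57516588 to 57521737, minus strand) 355 of its 1307 exon bases also lie in exons of MARS1, a methionyl-tRNA synthetase gene on the opposite strand. MARS1 averaged 195 ± 4.30 FPKM in Dox and 342 ± 10.9 in Cont (SD, n = 3 each), and since strand use in counting is not stated, reads of the pair may be mixed.

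TRIB3 (chromosome 20, 362835 to 397559, plus strand), a pseudokinase gene raised by ATF4 together with CHOP, fell by about as much as ATF4. It was at 29.1, 28.0 and 31.6 FPKM in Dox, against 74.0, 87.5 and 83.2 in Cont, and the groups lay far apart. That is 2.76-fold lower in Dox (log2 change -1.43, SE 0.0818, limma adjusted p = 1.37e-07). Within a library, TRIB3 over ATF4 was 0.516, 0.500 and 0.528 in Dox and 0.481, 0.527 and 0.560 in Cont. These ratios overlapped (difference in log2 ratio -0.0195, exact two-sided permutation p = 0.9, where 0.1 is the smallest p that 3 against 3 libraries allow). DDIT3 over ATF4 was higher in Dox, at 0.0625, 0.0586 and 0.0746, against 0.0459, 0.0453 and 0.0458 in Cont, with no overlap (difference in log2 ratio 0.51, exact two-sided permutation p = 0.1, 0.133 when adjusted over the 12 ratios computed).

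NUPR1 (chromosome 16, 28532708 to 28539174, minus strand), which encodes a small chromatin-bound stress protein and is a known ATF4 target, went the other way. It stood at 15.6, 16.5 and 31.1 FPKM in Dox, against 3.41, 3.47 and 3.83 in Cont. The third Dox library was nearly as high as the other two together, and the lowest Dox library was still above every Cont library. The means were 21.1 ± 8.68 FPKM in Dox and 3.57 ± 0.227 in Cont (SD, n = 3 each), 5.90-fold higher in Dox (log2 change 2.20, SE 0.214, limma adjusted p = 6.16e-06). Without the third Dox library the log2 change was 1.90, and the call held.

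ASNS (chromosome 7, 97852118 to 97872542, minus strand), asparagine synthetase, was listed at a very low level in both groups. It was at 0.451, 0.272 and 0.150 FPKM in Dox, against 0.147, 0.0453 and 0.0889 in Cont, from 46, 19 and 9 reads in Dox and 8, 2 and 5 reads in Cont. These FPKM include the deposited offset, worth 1.58 to 2.62 reads per library. In the second Cont library it was 2.31, more than the 2 reads themselves. The offset narrows the gap between groups in FPKM relative to that in reads. The lowest Dox library was barely above the highest Cont library. Summed over a group, 74 reads in Dox (exact Poisson 95% interval 58.1 to 92.9) and 15 in Cont (8.40 to 24.7) came to 0.678 and 0.141 reads per M listed reads, and these intervals cover counting error only. Of its 4455 exon bases in GENCODE 29, 1985 are shared with AC079781.5, a processed transcript on the same strand, and 4 ASNS pseudogenes are named there. How reads shared with these were counted is not stated, so the listed level may be below that of the message. Its level was under the filter, so it entered no test of the main analysis. With no filter the log2 change was 0.23 (SE 0.098, limma adjusted p = 0.0547), and it was called in the deposited log2 values with no filter (1.65, limma adjusted p = 0.0283) and in limma voom on the reads (2.21, limma adjusted p = 0.0216). Its median rank was 12577 in Dox and 12541 in Cont, near the bottom of the 13117 listed genes.

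The ASNS promoter is the textbook site where ATF4 pairs with a C/EBP factor. The RefSeq window of 250 bases before its start (GRCh38.p14, chr7:97872409-97872658, minus strand) is shown because it holds that composite element, TGATGNAA, in capitals.
ASNS: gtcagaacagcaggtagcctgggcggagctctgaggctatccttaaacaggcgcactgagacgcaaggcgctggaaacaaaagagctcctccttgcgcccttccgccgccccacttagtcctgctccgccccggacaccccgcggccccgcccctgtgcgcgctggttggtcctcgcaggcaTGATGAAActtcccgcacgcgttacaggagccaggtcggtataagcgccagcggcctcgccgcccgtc
The element, TGATGAAA, lay 68 to 61 bases before the start. On either strand TGATGNAA was present in 3.14% of the 35116 windows of this length in the RefSeq table. Of the 10 genes, 7 were in that table with 12 windows in all, and no other window of theirs had TGATGNAA. The FOXO core TGTTTAC, found in 2.98% of all windows on either strand, was in none of the 12. These matches describe letters in a short window and say nothing of binding.

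The serine route was split between its steps. PHGDH (chromosome 1, 119648411 to 119744226, plus strand), the enzyme of the first step from phosphoglycerate, was at 12.7, 12.3 and 11.1 FPKM in Dox, against 29.5, 27.8 and 23.1 in Cont. Each Dox library was lower than each Cont library, 2.22-fold by the means (log2 change -1.09, SE 0.101, limma adjusted p = 4.59e-06). PSPH (chromosome 7, 56011051 to 56051604, minus strand), the phosphatase of the last step, was at 21.6, 24.2 and 25.9 FPKM in Dox, against 38.9, 35.0 and 38.8 in Cont. It too was lower in every Dox library, by 1.57-fold (log2 change -0.63, SE 0.0849, limma adjusted p = 6.56e-05), though by -0.37 with the mitochondrially encoded genes left out of the scaling, where the median of all tested genes was 0.193 in place of -0.0644.

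PSAT1, the aminotransferase between these steps, was the most abundant of the group in Dox and rose. It reached 366, 377 and 478 FPKM in Dox, against 149, 157 and 148 in Cont. The means were 407 ± 61.6 in Dox and 152 ± 4.92 in Cont (SD, n = 3 each), which is 2.69-fold higher in Dox (log2 change 1.41, SE 0.0994, limma adjusted p = 6.01e-07). It ranked 215 among all listed genes in Dox and 851 in Cont, from 17823 to 24340 reads per Dox library and 5966 to 9214 per Cont library. Its place in the genome is chromosome 9, 78297143 to 78330093, plus strand, and GENCODE 29 names 4 PSAT1 pseudogenes, to which shared reads may have been assigned or from which they may have come.

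Since PSAT1 went up and its neighbours down, the makeup of the route by message changed. PSAT1 held 91.4%, 91.2% and 92.8% of the summed FPKM of the 3 enzymes in Dox, against 68.5%, 71.5% and 70.6% in Cont. The share of PHGDH was 3.18%, 2.98% and 2.15% in Dox, against 13.6%, 12.6% and 11.0% in Cont. Within a library, PHGDH over PSAT1 was 0.0348, 0.0327 and 0.0231 in Dox and 0.198, 0.177 and 0.156 in Cont, with no overlap (difference in log2 ratio -2.56, exact two-sided permutation p = 0.1, adjusted 0.133). PSAT1 over PSPH was 17.0, 15.6 and 18.5 in Dox and 3.83, 4.50 and 3.82 in Cont (difference in log2 ratio 2.07, exact two-sided permutation p = 0.1, adjusted 0.133). PHGDH over PSPH was 0.590, 0.511 and 0.427 in Dox and 0.758, 0.794 and 0.595 in Cont, where the highest Dox and the lowest Cont ratio nearly met (difference in log2 ratio -0.49, exact two-sided permutation p = 0.1, adjusted 0.133). Ratios inside a library do not depend on how libraries were scaled to each other.

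**Figure D2:**
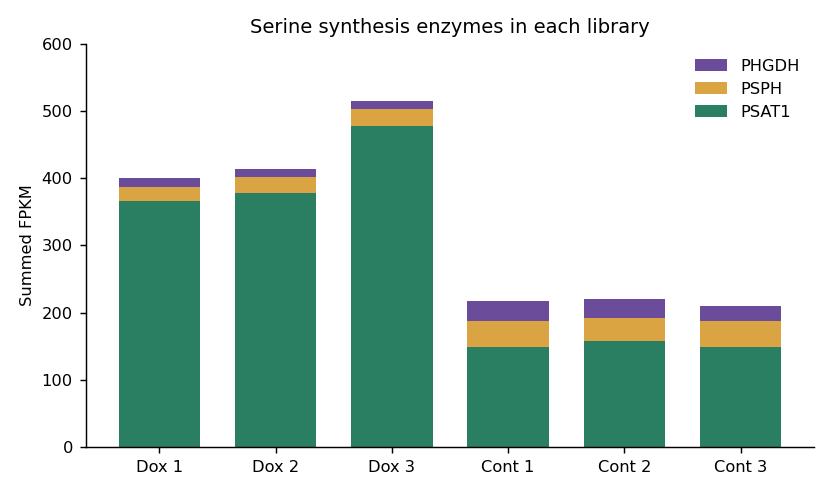
Summed FPKM of the serine synthesis enzymes PSAT1 (green), PSPH (yellow) and PHGDH (violet) in each Dox library (left) and each Cont library (right), stacked from 0. The sums were 400.4, 414 and 515 in Dox and 217, 219.9 and 210.3 in Cont, and PSAT1 is the largest block in every library.

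The promoters of the serine and one-carbon enzymes that rose, PSAT1 and MTHFD2, are shown beside that of PHGDH, which fell, for their CCAAT boxes, the element bound by the factor NF-Y. Each is the RefSeq window of 250 bases before the start (GRCh38.p14, plus strand), with CCAAT in capitals, at chr9:78296875-78297124 for PSAT1, chr2:74198365-74198614 for MTHFD2 and chr1:119711684-119711933 for PHGDH.
PSAT1: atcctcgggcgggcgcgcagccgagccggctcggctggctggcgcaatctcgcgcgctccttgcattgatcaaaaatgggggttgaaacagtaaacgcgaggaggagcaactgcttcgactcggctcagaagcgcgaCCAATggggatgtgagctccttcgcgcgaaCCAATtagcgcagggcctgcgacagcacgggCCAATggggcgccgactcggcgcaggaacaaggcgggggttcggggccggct
MTHFD2: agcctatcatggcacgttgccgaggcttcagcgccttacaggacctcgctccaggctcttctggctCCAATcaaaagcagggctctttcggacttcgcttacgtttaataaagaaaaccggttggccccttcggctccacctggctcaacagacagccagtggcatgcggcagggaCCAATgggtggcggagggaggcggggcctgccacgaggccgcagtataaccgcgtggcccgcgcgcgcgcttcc
PHGDH: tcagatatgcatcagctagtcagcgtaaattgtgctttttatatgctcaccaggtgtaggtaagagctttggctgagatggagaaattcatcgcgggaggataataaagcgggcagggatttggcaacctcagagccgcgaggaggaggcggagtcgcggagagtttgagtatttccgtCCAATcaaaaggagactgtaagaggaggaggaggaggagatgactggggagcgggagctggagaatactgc
PSAT1 had 3 copies of CCAAT, ending 109, 79 and 48 bases before the start, MTHFD2 had 2, ending 180 and 70 bases before it, and PHGDH had 1, ending 67 bases before it. CCAAT or its reverse ATTGG occurred in 32% of all windows. DDIT3 had 1 on each strand in both of its windows, and the windows of ATF4 and TRIB3 had none, so these boxes were found in genes that rose and in genes that fell.

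Serine is split in mitochondria by SHMT2, which passes a one-carbon unit to folate, and MTHFD2 oxidises that unit in the next step. These neighbours moved in opposite directions. SHMT2 (chromosome 12, 57229327 to 57234935, plus strand) was at 23.0, 21.5 and 27.0 FPKM in Dox, against 80.2, 80.1 and 77.2 in Cont, the largest fall in the group at 3.33-fold (log2 change -1.70, SE 0.0864, limma adjusted p = 6.37e-08). MTHFD2 (chromosome 2, 74198562 to 74217565, plus strand) was at 27.6, 27.9 and 26.2 FPKM in Dox, against 14.2, 15.2 and 12.2 in Cont, 1.96-fold higher (log2 change 0.93, SE 0.0885, limma adjusted p = 5.28e-06). In FPKM SHMT2 was thus above MTHFD2 in each Cont library and below it in the first and second Dox libraries. In reads, which are not scaled by gene length, SHMT2 was also above MTHFD2 in each Cont library. It was below MTHFD2 in every Dox library, at 2332, 1549 and 1822 reads against 5721, 4104 and 3613. For MTHFD2, 1324 of 4870 exon bases are shared with SLC4A5 on the opposite strand, and GENCODE 29 names 7 MTHFD2 pseudogenes.

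The other enzymes of the same reactions were set beside them. SHMT1, the cytosolic form of SHMT2, fell as well, to 5.74 ± 0.128 FPKM in Dox, against 25.2 ± 4.44 in Cont (SD, n = 3 each, log2 change -1.94, limma adjusted p = 2.37e-07). SHMT2 over SHMT1 was 4.08, 3.65 and 4.70 in Dox and 2.78, 3.03 and 3.81 in Cont, which overlapped (difference in log2 ratio 0.38, exact two-sided permutation p = 0.2, adjusted 0.24). MTHFD2L, the mitochondrial relative of MTHFD2, rose to 29.4 ± 1.27 FPKM in Dox, against 9.47 ± 1.82 in Cont (log2 change 1.55, limma adjusted p = 1.03e-06). MTHFD2 over MTHFD2L was 0.924, 0.995 and 0.860 in Dox and 1.54, 1.95 and 1.07 in Cont (difference in log2 ratio -0.67, exact two-sided permutation p = 0.1, adjusted 0.133). By FPKM the sister enzyme was thus ahead in each Dox library only. By reads MTHFD2 was ahead in every library, with 3613 to 5721 in Dox, against 1684 to 2526 for MTHFD2L. In Cont the reads were 1769 to 2774 against 469 to 692. Which enzyme is ahead thus depends on the gene lengths used, while the change of the ratio between groups does not.

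MTHFD1, the cytosolic enzyme that carries one-carbon units toward purines, fell to 4.75 ± 0.448 FPKM in Dox, against 30.6 ± 1.93 in Cont (SD, n = 3 each, log2 change -2.46, limma adjusted p = 7.85e-09). MTHFD2 over MTHFD1 was 5.79, 6.48 and 5.04 in Dox and 0.448, 0.477 and 0.430 in Cont. It was above 1 in every Dox library and below 1 in every Cont library, the widest gap of the 12 ratios (difference in log2 ratio 3.67, exact two-sided permutation p = 0.1, adjusted 0.133). MTHFD1L, which releases formate from mitochondria, fell to 7.17 ± 0.582 FPKM in Dox, against 18.6 ± 0.893 in Cont (log2 change -1.26, limma adjusted p = 4.17e-07). MTHFD2 over MTHFD1L was 4.03, 3.55 and 3.83 in Dox and 0.789, 0.773 and 0.668 in Cont (difference in log2 ratio 2.36, exact two-sided permutation p = 0.1, adjusted 0.133).

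**Figure D3:**
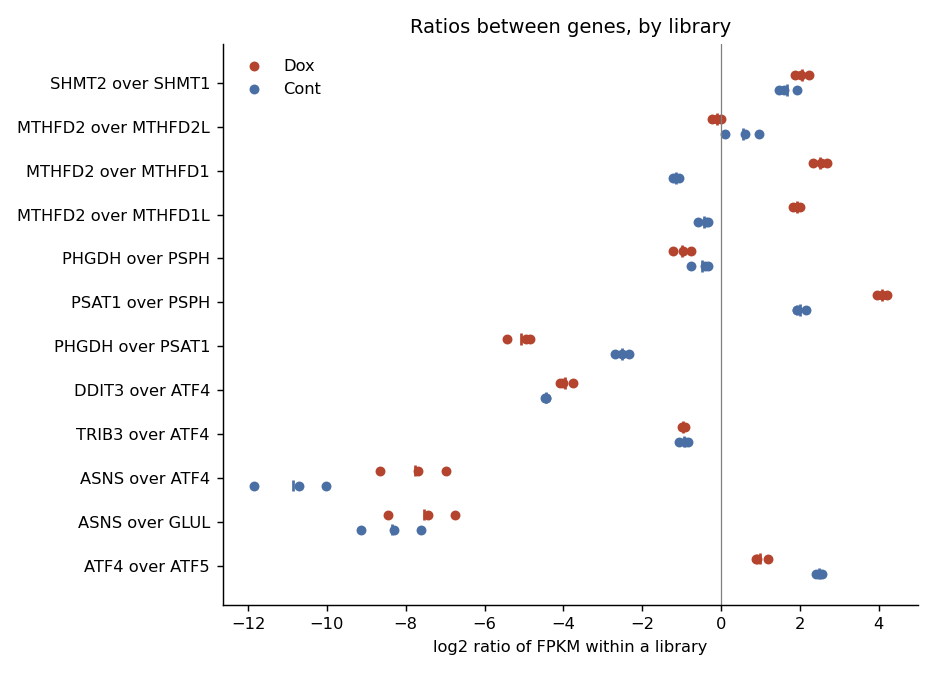
Ratio of FPKM between the 2 genes of each pair within a library (log2, horizontal axis), with the 3 Dox libraries (red, upper row of each pair) and the 3 Cont libraries (blue) as points and group means as ticks. The rows of MTHFD2 over MTHFD1, MTHFD2 over MTHFD1L, PSAT1 over PSPH and PHGDH over PSAT1 show wide gaps, and those of TRIB3 over ATF4, SHMT2 over SHMT1 and ASNS over GLUL overlap.

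In Cont the levels in FPKM ran, from the top, ATF4, PSAT1, TRIB3, SHMT2, PSPH, PHGDH, MTHFD2, DDIT3, NUPR1 and ASNS. ATF4 and PSAT1 overlapped there (149 to 166 against 148 to 157 FPKM), as did TRIB3 and SHMT2. Such an order depends on the length used for each gene in FPKM, and the annotation behind these lengths is not given. In the first Dox library, for example, NUPR1 had 3890 reads at 15.6 FPKM and TRIB3 had 1199 reads at 29.1 FPKM. In Dox the order was PSAT1, ATF4, TRIB3, MTHFD2, PSPH, SHMT2, NUPR1, PHGDH, DDIT3 and ASNS, but from TRIB3 to NUPR1 it was loose. NUPR1 spanned 15.6 to 31.1 FPKM and so overlapped TRIB3, MTHFD2, PSPH and SHMT2, and SHMT2 (21.5 to 27.0) overlapped both PSPH and MTHFD2. The summed level of the 10 genes was 556, 567 and 695 FPKM in Dox and 549.9, 579.6 and 542 in Cont, but PSAT1 alone held 65.9%, 66.5% and 68.8% of it in Dox, against 27.1%, 27.1% and 27.4% in Cont.

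By likeness of profile over the 6 libraries (Euclidean distance of log2(FPKM + 1) centred on its mean, among 11526 tested genes), ATF4 was nearest to SYNCRIP (0.0528), NONO (0.0739) and FIGNL1 (0.0877). For PHGDH the nearest were PITPNM1 (0.101), RPL6 (0.104) and TATDN1 (0.117), and for MTHFD2 they were SAP18 (0.0591), ABCD3 (0.0678) and H3-3A (0.0732). None of these 9 was in the lists used here.

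Upstream of ATF4, 12 of 18 genes for eIF2 kinases, eIF2, its exchange factor eIF2B and its phosphatase fell, 3 rose and 3 were not called, with a median log2 change of -0.52, against -0.0644 over all tested genes. The counts of this and the following lists stand beside 42.8% of all tested genes lower and 37.6% higher. Some genes, such as ATF5, CTH, PYCR1, ALDH18A1 and TRIB3, are in more than a single list, so the counts are not separate. EIF2S3, a subunit of eIF2, fell to 45.7 ± 2.11 FPKM in Dox, against 147 ± 2.29 in Cont (SD, n = 3 each, log2 change -1.66, limma adjusted p = 1.04e-08), and EIF2B3 fell to 14.1 ± 0.684, against 41.8 ± 8.11 (-1.49, limma adjusted p = 2.58e-06). EIF2AK4, the kinase GCN2 that senses uncharged tRNA, fell (log2 change -1.26, limma adjusted p = 2.03e-07). EIF2AK2, the kinase PKR that senses double-stranded RNA, also fell (-0.71, limma adjusted p = 3.97e-05). EIF2AK3 (PERK) and EIF2AK1 (HRI) were not called, with log2 changes of -0.10 and 0.05. OMA1, the mitochondrial protease that cuts DELE1 to signal to HRI, rose to 31.0 ± 3.68 FPKM in Dox, against 17.7 ± 2.50 in Cont (0.78, limma adjusted p = 1.46e-04). DELE1 itself was at 11.9 ± 1.41 FPKM in Dox and 9.34 ± 0.544 in Cont (0.31, limma adjusted p = 0.0161), and its call was lost without the first Dox library (0.25, limma adjusted p = 0.0651) or the second (0.27, limma adjusted p = 0.0601). Without either of these libraries 1 gene of the list was called higher in place of 3, and 5 were with the mitochondrially encoded genes left out of the scaling, where DELE1 was at 0.59. The number called lower, 12, was 9 without the second Cont library. It was also 9 with libraries scaled to equal summed FPKM, with or without the mitochondrially encoded genes.

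Of the 13 bZIP factors that pair with ATF4 or share its sites, 4 rose, 4 fell and 5 were not called, with a median log2 change of 0.01. CEBPA, among the rises (1.21, 1.48 and 1.04 FPKM in Dox, against 0.184, 0.0769 and 0.124 in Cont), passed the filter on low values through Dox alone, and with the filter at FPKM 5 the rises were 3. CEBPD rose to 119 ± 2.96 FPKM in Dox, against 19.8 ± 2.69 in Cont (SD, n = 3 each, log2 change 2.54, limma adjusted p = 9.81e-09), and CREB1 to 125 ± 6.26, against 32.8 ± 1.76 (1.90, limma adjusted p = 8.72e-09). BATF3 (-0.83, limma adjusted p = 2.5e-05) and CEBPG (-0.61, limma adjusted p = 1.62e-04) fell. ATF5, a close relative of ATF4 that is also translated more under stress, was at 28.7 ± 2.23 FPKM in Dox and 27.7 ± 1.29 in Cont, and was not called (log2 change 0.05, limma adjusted p = 0.59). ATF4 over ATF5 was therefore lower in Dox, at 1.88, 1.86 and 2.29, against 5.33, 5.92 and 5.65 in Cont (difference in log2 ratio -1.49, exact two-sided permutation p = 0.1, adjusted 0.133). With the mitochondrially encoded genes left out of the scaling 7 of the 13 were called higher, and CEBPG was at -0.37.

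Among 22 tested genes that ATF4 is known to raise, outside the 10, the carriers and the synthetases, 13 fell, 4 rose and 5 were not called (median log2 change -0.56). VEGFA, the angiogenic growth factor, fell to 4.48 ± 1.09 FPKM in Dox, against 30.0 ± 2.15 in Cont (SD, n = 3 each, log2 change -2.52, limma adjusted p = 1.11e-07). EIF4EBP1, an inhibitor of cap-dependent translation, fell to 27.5 ± 9.27, against 121 ± 1.04 (-2.15, limma adjusted p = 2.04e-06). KLHL24, a substrate receptor of a ubiquitin ligase, rose to 7.82 ± 0.538, against 1.78 ± 0.192 (1.66, limma adjusted p = 1.91e-07), and CTH, which makes cysteine from cystathionine, rose to 10.1 ± 1.88, against 3.36 ± 1.07 (1.36, limma adjusted p = 5.6e-05). Leaving the mitochondrially encoded genes out of the scaling made the number called higher 7. ADM2, among those lower, passed the filter through Cont alone, ALDH1L2 was below it, and FGF21, INHBE and CARS1 were not analysed here.

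The amino acid carriers fell in 7 of 10 tested genes, with 1 higher and 2 not called, and had the lowest median of these lists, -1.58. SLC7A5 and SLC3A2, the chains of the leucine carrier LAT1 and 4F2hc, were at 18.3, 19.3 and 20.9 FPKM and 28.2, 24.4 and 26.7 FPKM in Dox, against 201, 201 and 181 FPKM and 143, 157 and 124 FPKM in Cont. Their log2 changes were -3.25 (limma adjusted p = 1.09e-09) and -2.37 (limma adjusted p = 1.31e-08). SLC7A11, which pairs with the same heavy chain to take up cystine, was the single riser, at 11.2 ± 0.291 FPKM in Dox and 1.39 ± 0.392 in Cont (SD, n = 3 each, log2 change 2.36, limma adjusted p = 6.77e-08).

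Cytosolic tRNA synthetases fell in all but 1 of the tested genes, counting known ATF4 targets and others. All 11 tested targets fell (median log2 change -1.09), led by YARS1 (23.3 ± 1.21 FPKM in Dox and 89.6 ± 5.84 in Cont, SD, n = 3 each, -1.90, limma adjusted p = 1.27e-08) and AARS1 (-1.45, limma adjusted p = 4.97e-08). Under quantile normalization, and with libraries scaled to equal summed FPKM, with or without the mitochondrially encoded genes, 10 of the 11 were called lower. Of 7 others 6 fell and 1 was not called (median -0.81), and FARSA (-1.62, limma adjusted p = 1.08e-07) and FARSB (-1.58, limma adjusted p = 2.1e-07), the subunits of the phenylalanine enzyme, were the lowest. Whether the 2 lists differ was not tested.

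Of the genes known to be raised by CHOP, 5 of 8 rose and 3 fell, TRIB3 among them (median log2 change 1.22). BCL2L11, which encodes the cell death protein BIM and is also a known FOXO target, reached 198 ± 7.75 FPKM in Dox, against 25.5 ± 3.15 in Cont (SD, n = 3 each, 2.92, limma adjusted p = 3.3e-09). ERO1A, an oxidase of the endoplasmic reticulum, rose to 77.1 ± 6.88, against 21.7 ± 0.583 (1.78, limma adjusted p = 2.39e-08), while the death receptor gene TNFRSF10B fell (-1.05, limma adjusted p = 6.43e-07).

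**Figure D4:**
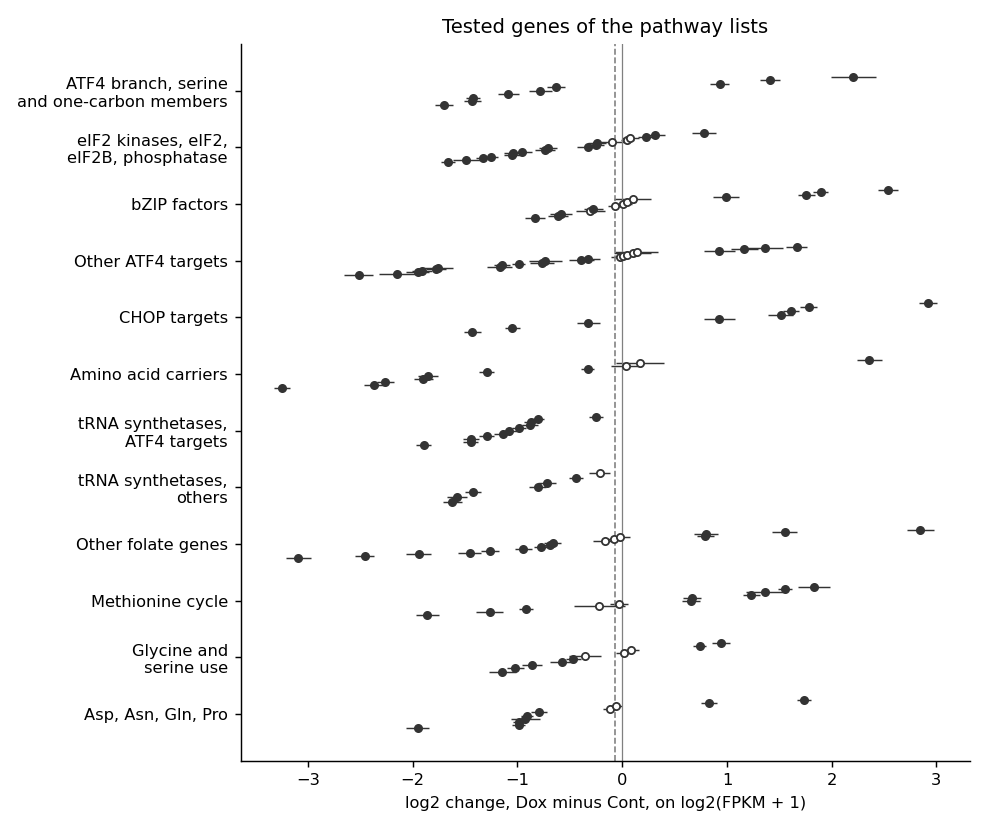
Log2 change (Dox minus Cont, on log2(FPKM + 1), horizontal axis) of each tested gene of the 10 described here (top row) and of the pathway lists, with the limma SE as a bar, filled where called and open where not. The dashed line marks the median of all tested genes, -0.0644, and both tRNA synthetase rows lie wholly to its left.

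In the rest of folate metabolism 9 of 16 tested genes fell, 4 rose and 3 were not called (median log2 change -0.68), so that 13 of 16 were called where 80.4% of all tested genes were. TYMS, thymidylate synthase, was at 2.50, 2.89 and 3.65 FPKM in Dox, against 34.5, 35.2 and 29.5 in Cont, the lowest change of the list (-3.09, limma adjusted p = 1.07e-08). ALDH1L1, which burns formyl-tetrahydrofolate to carbon dioxide in the cytosol, was at 7.94, 8.36 and 5.92 FPKM in Dox, against 0.150, 0.124 and 0.204 in Cont, from 588 to 1187 reads per Dox library and 12 to 20 per Cont library (2.85, limma adjusted p = 3.36e-08). The added 1 FPKM shrinks this change, which was 4.85 with a pseudocount of 0.1, 5.56 in the deposited log2 values and 5.79 in voom. The gene passed the filter through its Dox values alone.

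The methionine cycle, which takes one-carbon units from folate, was listed together with transsulfuration. This joint list had 6 rises among 11 tested genes, CTH among them, with 3 lower and 2 not called (median log2 change 0.66). BHMT, which remethylates homocysteine with betaine, rose to 5.69 ± 1.24 FPKM in Dox, against 0.870 ± 0.243 in Cont (SD, n = 3 each, 1.83, limma adjusted p = 2.03e-06, and 2.92 in voom), and only 1 Cont library reached the filter. MAT2B, the regulatory subunit of S-adenosylmethionine synthetase, rose to 93.7 ± 5.44, against 31.2 ± 0.205 (1.55, limma adjusted p = 2.27e-08), whereas its catalytic partner MAT2A fell to 27.6 ± 3.60, against 67.9 ± 11.0 (-1.26, limma adjusted p = 9.56e-06). AHCY, which clears S-adenosylhomocysteine, fell to 58.0 ± 8.07, against 213 ± 20.9 (-1.86, limma adjusted p = 1.46e-07).

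Genes for glycine cleavage and for serine transport and use fell in 5 of 10 tested cases, rose in 2 and were not called in 3 (median log2 change -0.41), with the share that fell near the 42.8% of all tested genes. SFXN1, the mitochondrial serine carrier, fell to 125 ± 12.4 FPKM in Dox, against 254 ± 4.52 in Cont (SD, n = 3 each, -1.02, limma adjusted p = 1.24e-06), and GCSH of the glycine cleavage system also fell (-1.14, limma adjusted p = 2.05e-05). The serine-using lipid enzymes SPTLC2 (0.94, limma adjusted p = 4.03e-06) and PTDSS1 (0.74, limma adjusted p = 2.86e-06) rose. Quantile normalization, and scaling without the mitochondrially encoded genes, each gave 4 rises in place of 2.

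In aspartate, asparagine, glutamine and proline metabolism 6 of 10 tested genes fell, 2 rose and 2 were not called (median log2 change -0.85). The risers were GLUD1, glutamate dehydrogenase, at 233 ± 6.81 FPKM in Dox and 69.3 ± 3.52 in Cont (SD, n = 3 each, 1.74, limma adjusted p = 9.66e-09), and GLUL, glutamine synthetase and a known FOXO target, at 49.4 ± 2.82 in Dox and 27.4 ± 1.58 in Cont (0.83, limma adjusted p = 3.57e-06). PYCR1 (-1.95, limma adjusted p = 1.17e-07) and ALDH18A1 (-0.99, limma adjusted p = 2.64e-07), consecutive enzymes of proline synthesis and both known ATF4 targets, fell. ASNS over GLUL overlapped between groups (difference in log2 ratio 0.80, exact two-sided permutation p = 0.4, adjusted 0.436), and ASNS over ATF4 did not (3.09, exact two-sided permutation p = 0.1, adjusted 0.133). Both ratios rest on the few ASNS reads given above and on ASNS FPKM that include the offset.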

How the data were processed

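RNA was measured in 6 libraries of SNU449 cells, 3 Dox and 3 Cont, made by poly(A) capture per the labels' protocols. The authors deposited 1 table of 13117 genes in log2 FPKM (lowest -8.59, highest 13.9), where an offset had been added before taking the logarithm. FastQC 0.11.7 and GRCh38 are named in the submitters' processing notes. Aligner, counter, annotation, filters and strandedness are not given in the sources used here. The same column name stands in the descriptions of Cont samples 1 and 2, so columns were matched by title, which affects only which Cont library is replicate 1 or 2.

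FPKM was taken as 2 to the power of the deposited value. In 307 genes tied lowest values marked 0 reads. With these steps all 13117 genes (100.0%) gave whole reads within 0.003 reads, at an offset averaging 2.0 reads per library. Reads served for depth, for ASNS intervals and for voom.

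limma 3.58.1 in R 4.3.3 tested log2(FPKM + 1) with a mean-variance trend, empirical Bayes moderation and two-sided tests. Benjamini-Hochberg adjustment ran over the 11526 genes that reached FPKM 1 in 3 or more libraries, and the script was tested on simulated data. Ratios of FPKM within a library were compared by exact two-sided permutation over the 6 libraries. Coordinates and pseudogenes come from GENCODE 29 (GRCh38) and promoter windows from RefSeq (GRCh38.p14), matched by symbol. No batch is labelled. The 10 genes, the lists and the tests were chosen with earlier results of these data known. Named are the 10 genes, the ratio genes, the nearest profiles, and of each list up to 2 of the largest rises and falls past the threshold with no overlap. ADM2, CEBPA, EIF2AK1, EIF2AK2, EIF2AK3, EIF2AK4, MARS1 and single markers were named after their values were seen. Alternatives were other scales, pseudocounts, filters and scalings, the replicate number as a block and leaving out each library, and, added after seeing the data, voom on reads and deposited log2 values with no filter.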

Additional observations from a re-analysis of the deposited data

How the results depend on the processing

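All 9 tested genes of the group kept their direction and call in all 18 fits, with log2 changes from -1.46 to -1.16 for ATF4, 1.29 to 1.70 for PSAT1, -1.79 to -1.44 for SHMT2, 0.85 to 1.22 for MTHFD2 and -0.69 to -0.37 for PSPH, the smallest. The number called higher was 3, and 4 with ASNS in voom and in the deposited log2 values with no filter. The ratio of TRIB3 to ATF4, which overlapped between groups, changed sign when libraries were left out (-0.0777 to 0.031, with 0.0011 without Dox replicate 2). ASNS over GLUL changed sign with an offset of 1 on FPKM (-0.59), where the offset exceeds ASNS itself. Scaling without the mitochondrially encoded genes moved the median log2 change of all tested genes to 0.193 from -0.0644 and the share of calls that were higher to 59.0% from 46.7%. The replicate number as a block gave 9272 calls in place of 9265, with 3 and 6 of the group higher and lower. A block leaves each difference between group means as it was, so no sign could change with it. Same-numbered libraries correlated at 0.037, -0.005 and 0.079 in their deviations from group means, not always best with their own number. The Cont numbers 1 and 2 are in doubt, and Dox 1 with Cont 2 gave 0.092 and Dox 2 with Cont 1 gave 0.01. Whether same-numbered samples share a culture or batch therefore cannot be told from these values. Depth limits ASNS, with 2 to 46 reads per library.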
